A study of Mus musculus with 26 samples.

Results

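Heparan sulfate, heparin, dermatan sulfate, chondroitin sulfate and hyaluronan are glycosaminoglycans, long sugar chains that are taken apart in the lysosome by enzymes acting one after the other from the chain end. The 8 genes described here encode such enzymes and were chosen by name: Ids, Idua, Sgsh, Hgsnat, Naglu, Gusb, Arsb and Hexa. Each symbol was matched to 1 of the 52636 genes counted in every library, and all 8 passed the filter on low counts in every comparison. The question was how the genes of this pathway are expressed along the path from progenitor to mast cell and whether they differ without neutrophil serine protease 4 (NSP4), the product of Prss57.

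RNA sequencing covered 26 libraries from wild-type and Prss57-/- mice. Sorted granulocyte-macrophage progenitors (GMPs; lineage-negative, SCA-1-, CD117+, CD34+, high CD16/32) and common myeloid progenitors (CMPs; the same with low CD16/32) gave 4 libraries per genotype each, from female bone marrow. Mast cells grown from bone marrow (BMMCs) gave 5 libraries per genotype, from male mice and in another sequencing run; per the methods, BMMCs were grown from GMPs with interleukin-3 and stem cell factor. Per the study's methods, Prss57-/- mice carried a germline deletion of exon 2 made in C57BL/6N embryonic stem cells, and wild-type mice were their littermates, matched for an age that was not given. The labels mark BMMCs as P3, without saying what this stands for.

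Heparan sulfate and its more sulfated form, heparin, are cleared by a mixed set of sulfatases, glycosidases and 1 acetyltransferase, and a lack of any of them causes a lysosomal storage disease, for most of them a mucopolysaccharidosis. Mast cells are known for storing heparin in their secretory granules, bound to the core protein serglycin. Ids (iduronate-2-sulfatase) and Idua (alpha-L-iduronidase) act on heparan and dermatan sulfate. Sgsh (sulfamidase), Hgsnat (a membrane enzyme that acetylates glucosamine at the chain end) and Naglu (alpha-N-acetylglucosaminidase) act on heparan sulfate. Gusb (beta-glucuronidase) removes glucuronic acid from several kinds of chain, Arsb (N-acetylgalactosamine-4-sulfatase) acts on dermatan and chondroitin sulfate, and Hexa is the alpha subunit of beta-hexosaminidase, which also degrades the ganglioside GM2.

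Ids, Sgsh and Arsb are sulfatases, and these members had the largest differences between BMMCs and GMPs in either direction. Sulfatases share an active-site stretch of codons for cysteine, any residue, proline, serine (in some, alanine or cysteine) and arginine, whose cysteine must be converted by the enzyme made from Sumf1. The form with serine was searched in the coding sequence of the principal GENCODE M21 transcript of each gene. It was found once in each of the 3 sulfatases and in none of the other 5 members. The 27 coding bases around it are shown to let the 3 sites be compared, with the 5 codons in capitals:
Ids, codons from 86, chrX:70363125-70363151, reverse strand, exon 3: gcagtgTGCGCACCAAGTCGAgtgtcc
Sgsh, codons from 70, chr11:119352667-119352693, reverse strand, exon 2: agcagcTGTTCCCCGAGCCGTgccagc
Arsb, codons from 92, chr13:93772045-93772071, forward strand, exon 1: ccgctgTGCACGCCCTCGCGGagccag
The codon numbers give the position of the cysteine, counted from the start codon, and the coordinates are of GRCm38. The same stretch was found in Galns, Arsg, Arsk and Arsa, which encode other lysosomal sulfatases.

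Promoter windows from RefSeq (GRCm38.p6), 250 bases before to 50 bases after the start, were matched for 7 of the 8 members, and Hgsnat had no entry. Many lysosomal genes carry the palindrome CACGTG near their start, a letter sequence bound by TFEB and related factors. The palindrome was in 3 of 10 windows of other genes of glycosaminoglycan degradation and in 3 of 12 windows of other lysosomal hydrolases. Of the members, Naglu and Sgsh had it, 2 of 7 windows, against 7.15% of the 32851 windows of all genes. The sites are shown with the palindrome in capitals:
Naglu, chr11:101070009-101070038, forward strand: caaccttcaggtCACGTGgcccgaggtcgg
Sgsh, chr11:119355522-119355551, reverse strand: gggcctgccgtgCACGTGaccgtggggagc
The palindrome begins 73 bases before the RefSeq start of Naglu and 29 bases before that of Sgsh. These distances hold for the RefSeq starts only. In GENCODE M21, Naglu begins at 101070012, so that its palindrome lies inside the gene. Sgsh, on the reverse strand, begins at 119355536, within its palindrome. The longer form TCACGTGA was in the window of no member and in 0.974% of all windows, and TCATGTG, searched on both strands, was in no member's window and in 3.77% of all. These are matches of letters only.

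The members lie on 6 chromosomes, and in GRCm38 (GENCODE M21) Ids lies on the X chromosome from 70343069 to 70365084. Naglu (101070012 to 101077672) and Sgsh (119343425 to 119355536) lie on chromosome 11. Idua (108660331 to 108684557) and Gusb (129989011 to 130003049) lie on chromosome 5. Hgsnat lies on chromosome 8 from 25944453 to 25976753, Hexa on chromosome 9 from 59539540 to 59565109 and Arsb on chromosome 13 from 93771630 to 93943016. Idua shares exonic bases with Dgkq and Slc26a1 on the opposite strand, Sgsh with Card14, Hexa with Tmem202, and Arsb with Gm47210 and Gm26527. The libraries were stranded, but whether counting used strand was not given. Slc26a1 had 0 to 780 reads per library and Dgkq 100 to 608, against 354 to 1643 for Idua. Slc26a1 reads followed cell type, with at most 65 in a wild-type GMP library, 702 in a wild-type CMP library and 0 in wild-type BMMCs. Their part in the Idua counts was not tested. Card14 had at most 6 reads, Tmem202 at most 102, Gm47210 at most 75 and Gm26527 at most 12.

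Between 32078404 and 53264762 reads per progenitor library and between 18627626 and 28647216 per BMMC library were counted on genes. Prss57 had 18064 to 26556 reads in wild-type GMPs against 6 to 25 in Prss57-/- GMPs, 2261 to 3926 against 1 in CMPs, and 2 to 27 against 0 in BMMCs. Granulocyte-macrophage markers (7 genes, Mpo and Elane among them) summed to 25633 to 37642 normalized RPKM in GMPs and 3842 to 9630 in CMPs. BMMCs expressed the mast cell markers, and in all 10 libraries the sum of the macrophage markers was above that of the progenitors, in 9 of them far above it. The 8 macrophage markers, such as Lyz2, C1qb and Adgre1, summed to 10522 to 20373 normalized RPKM in these 9 libraries, against 188 to 534 in the progenitors. Prss57-/- BMMC library 3 stood apart: its macrophage markers summed to 1109 and its mast cell markers to 75378 normalized RPKM, against 24991 to 46484 for the mast cell markers in the other 9. Lyz2 alone made up 978 of that macrophage sum, so the sum does not show each macrophage marker to be above the progenitors. No defining macrophage marker was at 0 in any BMMC library. For the members, the BMMC results that this library enters are given without it as well, in values or in counts of calls. In bulk RNA, fewer cells of a type and less RNA per cell cannot be told apart.

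Levels are given as normalized RPKM, reads per kilobase of gene scaled to sequencing depth by the library's size factor, so that genes can be compared with each other. In wild-type GMPs, Hexa was the highest of the 8 at 246 ± 28.01 normalized RPKM (SD, n = 4), followed by Gusb at 123 ± 3.79 and Arsb at 85.8 ± 8.42. Naglu was at 26.8 ± 0.668, Hgsnat at 15.5 ± 0.789 and Idua at 7.38 ± 1.02 normalized RPKM. Sgsh at 3.45 ± 0.222 and Ids at 3.12 ± 0.819 were the lowest, and their ranges overlapped. All other neighbours in this order were separated in every library.

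The order was not that of the BMMCs. In wild-type BMMCs, Hexa remained the highest at 377 ± 27.8 normalized RPKM (SD, n = 5), with Gusb next at 82.0 ± 5.11, then Naglu at 59.5 ± 4.88 and Ids at 53.1 ± 8.16. Naglu and Ids overlapped. Hgsnat was at 28.5 ± 1.31, Idua at 13.5 ± 1.08 and Sgsh at 12.2 ± 1.59, of which the last 2 overlapped. Arsb, behind only Hexa and Gusb in GMPs, was the lowest at 4.96 ± 0.701 normalized RPKM.

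**Figure D1:**
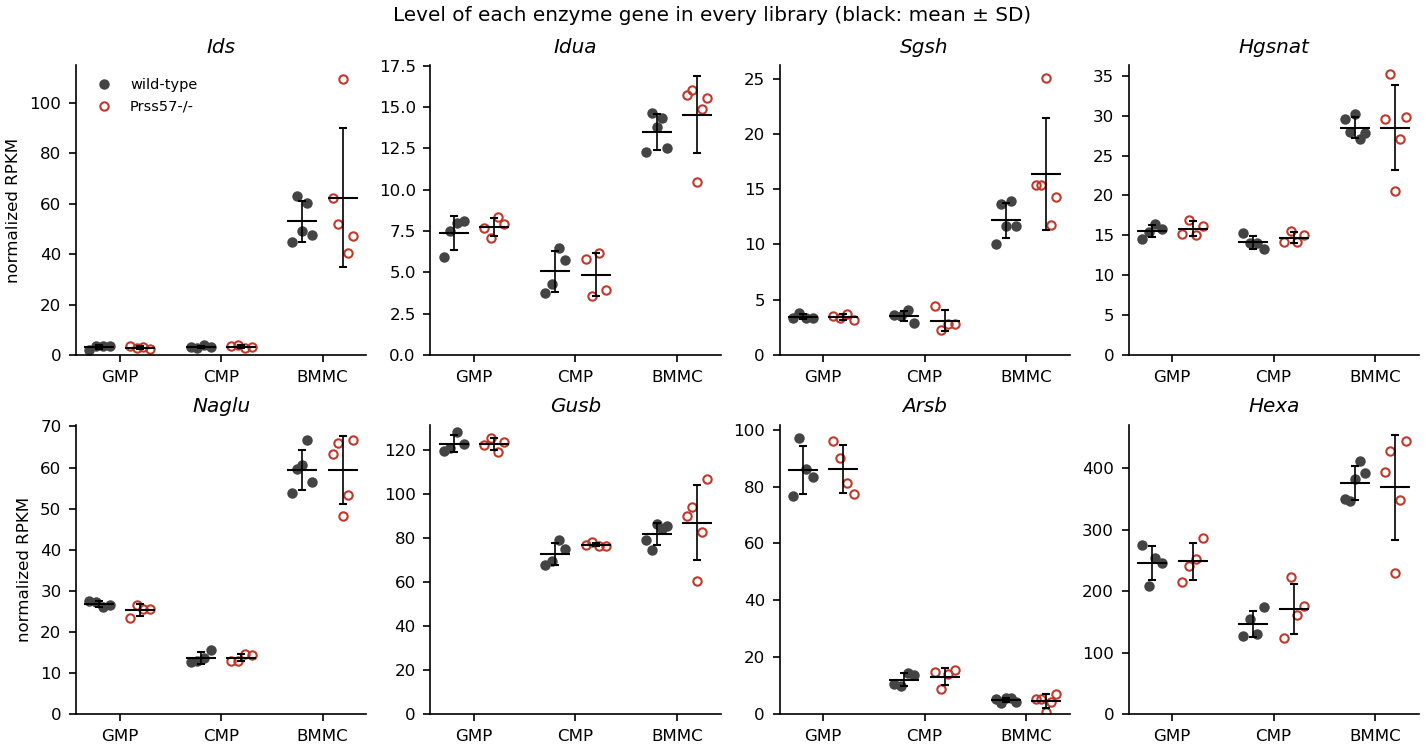
Normalized RPKM (y axis, linear from 0) of each of the 8 genes in every library of GMPs, CMPs and BMMCs; filled points are wild-type, open points Prss57-/-, and black bars the mean ± SD. Ids is near 3 in all progenitors and above 40 in all BMMCs, Arsb is above 76 in all GMPs and below 16 elsewhere, and wild-type and Prss57-/- points overlap in every cell type.

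No change was called in any of the 8 enzymes without Prss57, in GMPs, CMPs or BMMCs. Read counts of both genotypes entered edgeR's quasi-likelihood test, and a gene was called at a Benjamini-Hochberg adjusted p under 0.05 over all genes tested. In GMPs, 0 of 8 members were called, beside 0.0136% of the 14689 genes tested, and 0 had an unadjusted p under 0.05. The log2 fold changes of Prss57-/- over wild-type GMPs lay between -0.09 for Ids and 0.07 for Idua. The 95% confidence intervals of all 8 lay between -0.55 and 0.37, and for the heparan sulfate enzymes Sgsh, Hgsnat and Naglu they ran from -0.24 to 0.25, from -0.18 to 0.24 and from -0.28 to 0.11. Arsb, the member with the largest difference between progenitors, was at 76.8, 97.0, 86.1 and 83.3 normalized RPKM in the wild-type GMP libraries and at 96.1, 89.9, 81.1 and 77.3 in the Prss57-/- ones. Both genotypes thus covered the same range.

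In CMPs, 0 of 8 members were called, beside 0.0067% of the 14916 genes tested, and 0 had an unadjusted p under 0.05. The log2 fold changes lay between -0.20 for Sgsh and 0.20 for Hexa, with intervals between -0.74 and 0.65. Hexa was at 127, 155, 131 and 174 normalized RPKM in the wild-type CMP libraries and at 124, 223, 162 and 177 in the Prss57-/- ones. Library 2 of the Prss57-/- CMPs, the highest for Hexa, also had the steepest dependence of its values on gene length among the 26 libraries, and without this library the Hexa value was 0.06. Without Prss57-/- CMP library 1 it was 0.30, and it was called in neither case. The part of the length slope in the Hexa values was not tested. The genotype difference itself did not pass the test of a difference between GMPs and CMPs for any member (interaction in edgeR, 0 of 8 called, adjusted p = 1.00 for each), beside 0% of 15900 genes tested, of which 169 had an unadjusted p under 0.05 (135 by limma voom and 255 by DESeq2, which also called 0). None of these comparisons had a member called by limma voom or DESeq2 either.

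In BMMCs, 0 of 8 members were called, beside 0% of the 13938 genes tested by edgeR, of which 332 had an unadjusted p under 0.05. Limma voom and DESeq2 also called 0 genes, with 297 and 433 at an unadjusted p under 0.05. Sgsh was the 1 member with an unadjusted p under 0.05. It was at 10.1, 13.6, 11.6, 13.9 and 11.6 normalized RPKM in the wild-type libraries and at 15.4, 15.4, 25.1, 11.8 and 14.3 in the Prss57-/- ones, with a log2 fold change of 0.42 (SE 0.19, adjusted p = 1.00 by edgeR). The groups overlapped, and the exact two-sided permutation test on normalized RPKM gave p = 0.0476 before any adjustment for the 8 genes. The highest Sgsh value was that of library 3.

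Without library 3, the Sgsh log2 fold change was 0.22 (SE 0.11, adjusted p = 0.713 by edgeR) and its exact permutation p was 0.0952. Idua then separated the genotypes, as did 1.44% of the 11835 genes at a mean of at least 1 normalized RPKM in the same direction, with 14.9 to 16.1 normalized RPKM in the 4 remaining Prss57-/- libraries and 12.2 to 14.6 in the wild-type ones. Its log2 fold change was 0.20 (SE 0.06), with an exact permutation p of 0.0159, the smallest that 5 libraries against 4 allow, and an adjusted p of 0.581 by edgeR. Gusb, at 0.19 (SE 0.08, adjusted p = 0.657 by edgeR), was the other member with an unadjusted p under 0.05. Of the 14162 genes tested by edgeR without library 3, 0% were called and 1031 had an unadjusted p under 0.05. For Ids the log2 fold change went from 0.23 with library 3 to -0.08 without it, and for Arsb from -0.11 to 0.16.

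**Figure D2:**
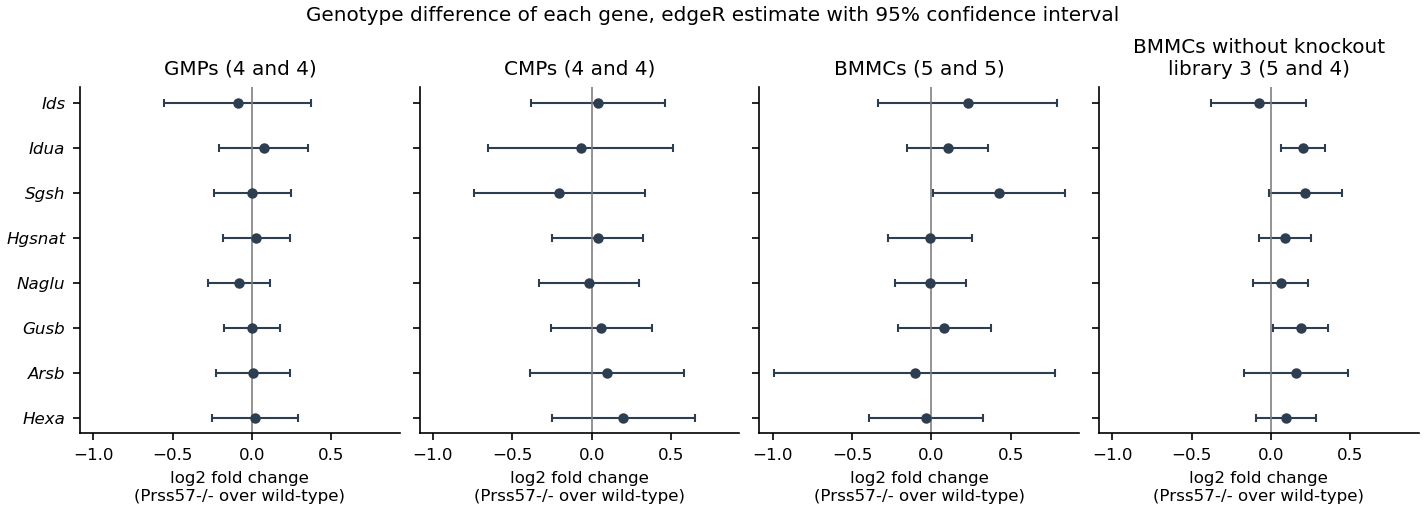
Log2 fold change of Prss57-/- over wild-type (x axis) with its 95% confidence interval from edgeR for each of the 8 genes (y axis), in GMPs, CMPs, BMMCs and BMMCs without Prss57-/- library 3. All intervals in GMPs and CMPs hold 0, Sgsh is at 0.42 in BMMCs and 0.22 without library 3, and the interval of Arsb, -0.99 to 0.78 with library 3, becomes -0.17 to 0.48 without it.

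Arsb, Naglu, Gusb and Idua were called higher in GMPs than in CMPs in both genotypes, Arsb by the most. In wild-type mice, 5 of 8 members were higher in GMPs (Arsb, Naglu, Gusb, Hexa and Idua) and 0 were lower, beside 19.0% of the 14967 genes tested that were called higher and 18.8% called lower. Arsb was at 76.8 to 97.0 normalized RPKM in the wild-type GMP libraries and at 10.7, 10.0, 14.3 and 13.7 in the wild-type CMP libraries. This is a log2 fold change of 2.83 (SE 0.15, adjusted p = 1.06e-06 by edgeR), or 7.13-fold. Naglu was at 27.4, 27.4, 26.1 and 26.4 normalized RPKM in GMPs and at 12.6, 12.9, 13.6 and 15.7 in CMPs, a log2 fold change of 0.99 (SE 0.11, adjusted p = 6.35e-05 by edgeR). Neither gene overlapped between the cell types.

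Gusb was higher in wild-type GMPs by a log2 fold change of 0.77 (SE 0.10, adjusted p = 1.84e-04 by edgeR) and Hexa also by 0.77 (SE 0.13, adjusted p = 0.00141). For Arsb, Naglu, Gusb and Hexa every GMP library was above every CMP library (p = 0.0286 in an exact permutation test, two-sided, and 4 libraries against 4 allow no smaller p). The same was true of 16.6% of the 11430 genes at a mean of at least 1 normalized RPKM. Idua was higher by 0.56 (SE 0.19, adjusted p = 0.0436 by edgeR), but its groups overlapped and the call rested on single libraries. Without wild-type GMP library 2, 3 or 4 its adjusted p by edgeR was 0.0946, 0.106 and 0.113, and without wild-type CMP library 1, 2 or 4 it was 0.117, 0.118 and 0.0606. The other 3 members, Sgsh (log2 fold change -0.01, interval -0.31 to 0.29), Ids (-0.01, -0.49 to 0.47) and Hgsnat (0.16, -0.07 to 0.38), were not called.

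The same contrast in the Prss57-/- libraries, which share no library with the wild-type ones, called 4 of 8 members higher and 0 lower, beside 10.6% and 10.9% of the 14959 genes tested. Arsb was higher by a log2 fold change of 2.74 (SE 0.22, adjusted p = 9.75e-05 by edgeR), Naglu by 0.93 (SE 0.13, adjusted p = 0.00131), Gusb by 0.72 (SE 0.13, adjusted p = 0.00457) and Idua by 0.71 (SE 0.22, adjusted p = 0.0451). Idua lost its call without Prss57-/- GMP library 1, 2, 3 or 4 (adjusted p by edgeR 0.0978, 0.0847, 0.124 and 0.0837) or CMP library 4 (0.127). Hexa was at 0.59 (SE 0.20, adjusted p = 0.0590 by edgeR) and passed the threshold without Prss57-/- CMP library 1 (adjusted p = 0.0460) or library 2 (0.0115), and with the replicate number as a block (log2 fold change 0.61, adjusted p = 0.0461). It was also called by limma voom (0.60, adjusted p = 0.0437), by DESeq2 (0.57, adjusted p = 0.0220), and in edgeR with library sizes alone as scaling (0.57, adjusted p = 0.0269), with all 26 libraries in 1 fit (0.56, adjusted p = 0.0135) or with each library's slope on gene length (0.62, adjusted p = 2.20e-06). The number of all genes called moved too, to 6924 without CMP library 1 and to 1891 to 2088 without GMP library 1, 2 or 3 or CMP library 4, against 3222 with all libraries.

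Other cell types' markers moved with the GMP to CMP difference. The 6 neutrophil markers summed to 1511 to 3297 normalized RPKM in wild-type GMPs against 10.3 to 31.3 in wild-type CMPs, and the 6 basophil and eosinophil markers to 3468 to 4196 against 33.3 to 85.7. The 6 erythroid markers summed to 24.7 to 55.9 in wild-type GMPs and 658 to 1162 in wild-type CMPs. Their part in the levels of Arsb and the other members was not tested.

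All 8 members were called between BMMCs and GMPs, some higher and some lower. In wild-type libraries 12030 of the 14754 genes tested were called as well, so a call was common and does not set the members apart. The 2 groups differ in cell type, culture, sex and sequencing run, which cannot be told apart. Wild-type BMMCs also held macrophage markers at a sum of 10522 to 15680 normalized RPKM. These summed to 301 to 405 in wild-type GMPs and to 192 to 281 in wild-type CMPs. The part of macrophage RNA in the members' levels was not tested. In wild-type libraries, 6 of 8 members were higher in BMMCs (Ids, Sgsh, Naglu, Hgsnat, Idua and Hexa), beside 40.8% of the 14754 genes tested, and 2 were lower (Arsb and Gusb), beside 40.8%. Under a stricter rule (adjusted p below 0.01 with at least a 2-fold difference), Ids, Sgsh and Naglu were higher, beside 27.3% of genes, and Arsb was lower, beside 24.4%. The median log2 fold change of the 8 was 0.78, and that of all genes tested was -0.00447.

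Ids, the X-linked iduronate-2-sulfatase, had the largest increase of the 8. It was at 1.90, 3.59, 3.57 and 3.43 normalized RPKM in wild-type GMPs and at 45.0, 63.2, 49.2, 60.3 and 47.6 in wild-type BMMCs. The groups were far apart, with a log2 fold change of 3.99 (SE 0.20, adjusted p = 4.04e-09 by edgeR), or 15.9-fold. Sgsh, the heparan N-sulfatase, was at 3.30 to 3.78 normalized RPKM in wild-type GMPs and at 10.1 to 13.9 in wild-type BMMCs, a log2 fold change of 1.73 (SE 0.11, adjusted p = 2.81e-08 by edgeR). Naglu was higher by 1.05 (SE 0.08), Hgsnat by 0.78 (SE 0.08), Idua by 0.78 (SE 0.11) and Hexa by 0.52 (SE 0.10), with adjusted p between 1.59e-07 and 4.61e-04 by edgeR. The members specific to heparan sulfate, Sgsh, Hgsnat and Naglu, were all higher, but so were Ids, Idua and Hexa. Of 16 other lysosomal hydrolases, 13 were also called higher and 0 lower, so the rise was not particular to heparan sulfate enzymes.

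Arsb went the other way, from 76.8 to 97.0 normalized RPKM in wild-type GMPs to 5.16, 4.05, 5.55, 5.63 and 4.41 in wild-type BMMCs. Its log2 fold change was -4.20 (SE 0.12, adjusted p = 5.47e-11 by edgeR), 18.4-fold lower in BMMCs, on 325 to 558 reads per library. Gusb fell from 120 to 128 normalized RPKM in wild-type GMPs to 74.5 to 86.6 in BMMCs, a log2 fold change of -0.68 (SE 0.08, adjusted p = 5.09e-06 by edgeR). Each of the 8 genes was without overlap between wild-type BMMCs and GMPs (p = 0.0159 for each in an exact permutation test, two-sided, the smallest possible). This held for 77.1% of the 12062 genes at a mean of at least 1 normalized RPKM, in either direction.

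In Prss57-/- libraries the same 8 members were called, 6 higher (beside 37.7% of the 14929 genes tested) and 2 lower (beside 36.2%). The log2 fold change was 4.31 for Ids (SE 0.33), 2.15 for Sgsh (SE 0.21) and -4.31 for Arsb (SE 0.46), with adjusted p of 2.41e-06, 1.12e-05 and 2.18e-05 by edgeR. Without BMMC library 3 these became 4.01, 1.95 and -4.05, and the same 6 members were called higher (beside 40.1% of the 14894 genes tested) and the same 2 lower (beside 40.2%). Hexa, at 0.47 (SE 0.19, adjusted p = 0.0442 by edgeR), overlapped between the groups through library 3, and without it the value was 0.61 (adjusted p = 4.65e-04). Its call was lost without Prss57-/- GMP library 1, 2 or 3 (adjusted p by edgeR 0.101, 0.0843 and 0.0722) or BMMC library 1, 2 or 5 (0.0757, 0.0861 and 0.0879). It was lost as well in limma voom (0.44, adjusted p = 0.0569), and in edgeR without a filter on low counts (0.46, adjusted p = 0.0571) or with library sizes alone as scaling (0.27, adjusted p = 0.208).

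**Figure D3:**
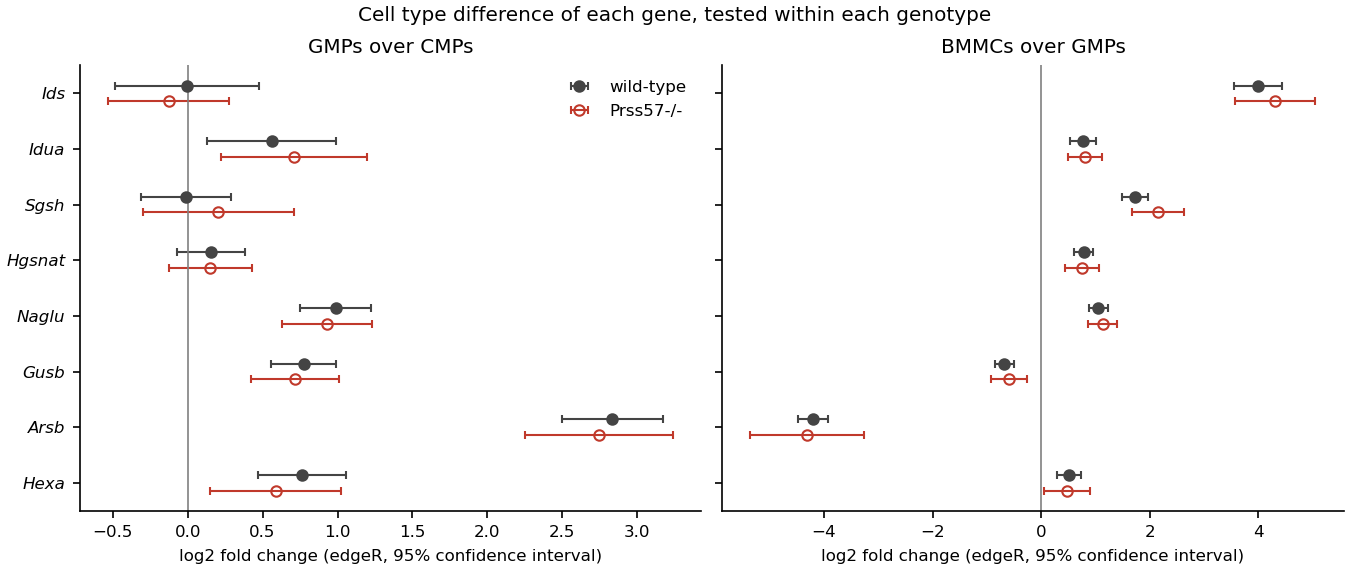
Log2 fold change with its 95% confidence interval from edgeR (x axis) for each of the 8 genes (y axis), for GMPs over CMPs (left) and BMMCs over GMPs (right); filled points are wild-type libraries and open points Prss57-/- libraries. Arsb is at 2.83 and 2.74 on the left and at -4.20 and -4.31 on the right, where Ids is at 3.99 and 4.31.

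Against CMPs, with the same BMMC libraries, 6 of 8 members were higher in wild-type BMMCs (beside 41.8% of the 15007 genes tested) and 1 was lower (beside 41.9%). In Prss57-/- libraries 6 were higher (beside 35.3% of the 15112 genes tested) and 1 was lower (beside 36.3%). Ids was higher than in CMPs by 3.97 (SE 0.15) in wild-type and 4.13 (SE 0.34) in Prss57-/- libraries, and Naglu by 2.03 (SE 0.10) and 2.01 (SE 0.16), on the log2 scale. Arsb was lower, at -1.38 (SE 0.14) and -1.61 (SE 0.45), and for these 3 genes adjusted p ranged up to 0.00825 by edgeR. Without BMMC library 3 the Prss57-/- values were 3.85 for Ids, 2.10 for Naglu and -1.33 for Arsb, with 6 members called higher (beside 37.0% of the 15043 genes tested) and 1 lower (beside 38.1%). Gusb was at 0.08 (SE 0.09) in wild-type and 0.07 (SE 0.18) in Prss57-/- libraries and was not called, nor was it without library 3 (0.20, SE 0.14, adjusted p = 0.224 by edgeR). With library sizes alone as scaling its wild-type value turned to -0.23 (adjusted p = 0.0418 by edgeR) and the Prss57-/- value to -0.13. Arsb was thus highest in GMPs, lower in CMPs and lowest in BMMCs, without overlap between neighbours, in either genotype.

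Prss57-/- BMMC library 3, the culture with few macrophage markers, differed from the other 9 BMMC libraries in all 8 members. It was a single library, so no test was made. Its Ids level of 110 normalized RPKM was above the 40.5 to 63.2 of the other 9, 2.11 times their mean, and its Sgsh level of 25.1 was above their 10.1 to 15.4, at 1.92 times. Arsb was at 0.926 normalized RPKM on 64 reads, against 4.05 to 7.24 in the other 9, or 5.64-fold below their mean. Hexa (230 against 346 to 444), Gusb (60.8 against 74.5 to 107), Hgsnat (20.6 against 27.0 to 35.2), Idua (10.4 against 12.2 to 16.1) and Naglu (48.2 against 53.2 to 66.7) were below all other BMMC libraries as well. The library thus had the highest values of Ids and Sgsh and the lowest of the other 6. Of all genes at a mean of at least 1 normalized RPKM in the other 9 libraries, 34.7% were above and 37.5% below all 9 in library 3, so that lying outside the other libraries was common.

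Of the 11835 genes at a mean of at least 1 normalized RPKM in the other 9 libraries, 7.48% were at least 2-fold higher in library 3 and 14.2% at least 2-fold lower. Of the 8 members 1 (Ids) passed the first limit and 1 (Arsb) the second. In the same library, 5 of 8 mast cell markers were at least 2-fold higher, while Hdc, the histidine decarboxylase of mast cells, was at 88.6 normalized RPKM and below the 125 to 175 of the other 9. All 8 macrophage markers were at least 2-fold lower, with a median ratio of 0.0792. The 4 dendritic cell markers at that level were also lower, at a median ratio of 0.0476. Of the neutrophil markers at that level, 3 of 4 were at least 2-fold lower. Of the common myeloid progenitor markers, 4 of 5 (Gata1, Gata2, Itga2b and Cd34) were at least 2-fold higher. The other, Pf4, was lower, at 72.3 normalized RPKM against 497 to 826. These markers alone do not show which cells the library held. The part of the cells that express these markers in the members' levels was not tested.

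**Figure D4:**
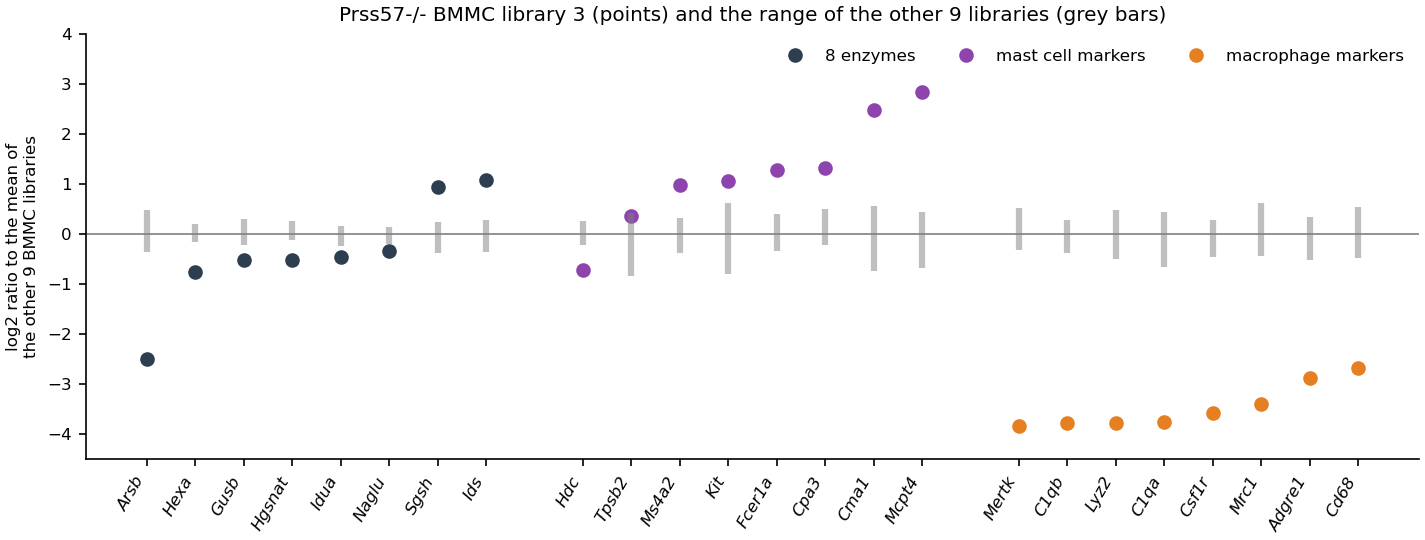
Log2 ratio of Prss57-/- BMMC library 3 to the mean of the other 9 BMMC libraries (points, y axis) for the 8 enzymes, the mast cell markers and the macrophage markers (x axis); grey bars span the other 9 libraries. Ids and Sgsh lie above the grey bars with 6 of the 8 mast cell markers, and Arsb, Hexa, Gusb, Hgsnat, Idua and Naglu lie below them with all 8 macrophage markers.

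The other 13 genes of glycosaminoglycan degradation also showed no called genotype difference: 0 of 13 passed in GMPs, CMPs or BMMCs by edgeR, with or without BMMC library 3. Between wild-type GMPs and CMPs, 4 were higher in GMPs (beside 19.0% of all genes tested) and 4 lower (beside 18.8%). Their median log2 fold change was 0.14, beside 0.66 for the 8 members and -0.02 for all genes. Galns, the N-acetylgalactosamine-6-sulfatase, was among the higher ones, at 37.97 ± 3.23 against 12.5 ± 1.02 normalized RPKM (SD; 4 libraries each). The difference was 1.62 on the log2 scale (SE 0.12, adjusted p = 3.81e-06 by edgeR). Gm2a, whose product presents GM2 to beta-hexosaminidase A, was higher by 0.84 (SE 0.09, adjusted p = 4.82e-05). In Prss57-/- libraries, 4 of the 13 were higher (beside 10.6% of all genes) and 3 lower (beside 10.9%).

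Between wild-type BMMCs and GMPs, 9 of these 13 genes were higher (beside 40.8% of all genes) and 4 lower (beside 40.8%), with a median log2 fold change of 1.14. Galns, like Arsb, was lower, at -2.12 on the log2 scale (SE 0.09, adjusted p = 9.48e-10 by edgeR). The 2 sulfatases that act on N-acetylgalactosamine were thus lower in BMMCs, and the members Ids and Sgsh were higher. Sumf1, the activator of all sulfatases, was higher by 1.22 (SE 0.10, adjusted p = 3.76e-07 by edgeR). Hpse, the heparanase that cuts chains internally, was lower, at -1.30 on the log2 scale (SE 0.12, adjusted p = 6.19e-07 by edgeR). In Prss57-/- BMMC library 3 Hpse was at 0.881 normalized RPKM against 5.98 to 12.3 in the other 9. Of the 11 listed genes at a mean of at least 1 normalized RPKM in those 9, library 3 was above all 9 for 2 and below for 5. Of all genes at that level, 34.7% were above and 37.5% below.

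**Figure D5:**
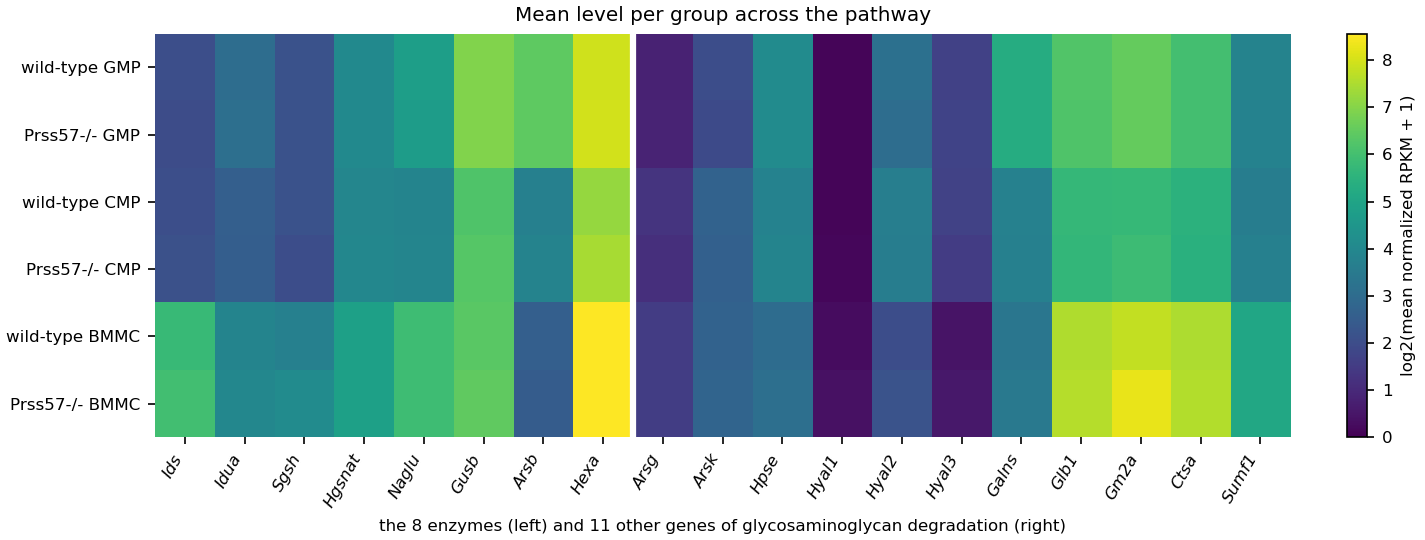
Mean level of each gene per group as log2(mean normalized RPKM + 1) (colour) for the 8 enzymes and, right of the white line, 11 other genes of glycosaminoglycan degradation (x axis) in the 6 groups (y axis). Ids changes from dark in GMPs and CMPs to light in BMMCs, Arsb is lightest in GMPs, and the rows of the 2 genotypes look alike within each cell type.

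Other lists place these values among lysosomal and heparin genes. Of 16 other lysosomal hydrolases, 9 were higher in wild-type GMPs than in CMPs, beside 19.0% of all genes tested. In wild-type BMMCs 13 were higher than in GMPs, beside 40.8%, with 0 lower in either comparison. Neu1 (sialidase, log2 fold change 2.10, SE 0.15) and Man2b1 (lysosomal alpha-mannosidase, 1.27, SE 0.11) had the smallest p in the first comparison, and Tpp1 (a tripeptidyl peptidase, 2.38, SE 0.09) and Lipa (lysosomal acid lipase, 2.77, SE 0.14) in the second. Of 7 genes that tag lysosomal enzymes with mannose-6-phosphate or sort them, 3 were higher and 2 lower in wild-type BMMCs than in GMPs. Of all genes tested, 40.8% were higher and 40.8% lower, so these counts do not set the 7 genes apart. Igf2r, the cation-independent mannose-6-phosphate receptor, had a level in wild-type GMPs of 0.255 ± 0.0620 normalized RPKM (SD, n = 4) and in wild-type BMMCs of 16.1 ± 2.75 (SD, n = 5). In Prss57-/- BMMC library 3, with few macrophage markers, Igf2r was at 2.07 normalized RPKM against 12.6 to 22.8 in the other 9. Lipa was at 38.6 there, against 200 to 419. Of the 16 hydrolases, 7 were above and 7 below all other 9 in library 3, and of the 7 targeting genes 1 and 5. Of all genes at a mean of at least 1 normalized RPKM, 34.7% were above and 37.5% below. The part of macrophages in these levels was not tested. Of 17 genes of heparan sulfate and heparin synthesis, 10 were higher in wild-type BMMCs than in GMPs (beside 40.8% of all genes) and 2 lower (beside 40.8%). The 6-O-sulfotransferase Hs6st2 went from 0.0696 ± 0.0242 (SD, n = 4) to 84.2 ± 12.9 normalized RPKM (SD, n = 5), and Hs3st1, a 3-O-sulfotransferase, was higher by 5.34 on the log2 scale (SE 0.22). None of the 40 genes of these lists was called between genotypes by edgeR in GMPs, CMPs or BMMCs, with or without BMMC library 3.

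The genes most like the members over the 26 libraries were Soat1, Gda, Vat1, Map2k1 and Slc36a1. Their log2(normalized RPKM + 1) had Pearson correlations of 0.98 to 0.99 with the mean of the 8 members' standardized values, a description only, since libraries of a cell type share that cell type and run. The members themselves did not follow that mean alike. Naglu (r = 0.98), Idua (0.95), Hexa (0.95), Hgsnat (0.88), Ids (0.79) and Sgsh (0.79) followed it, Gusb did so weakly (0.30), and Arsb had the opposite sign (-0.26).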

How the data were processed

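RNA was measured by stranded total RNA sequencing of 26 libraries. The authors aligned single-end reads to GRCm38 with GSNAP and counted uniquely aligned reads within exons. They deposited, for each gene and library, the raw count and a normalized RPKM, which matched the count over the product of a gene constant and a library size factor. Counts were tested in R 4.3.3 with edgeR 4.0.16 (TMM, filterByExpr, quasi-likelihood test with robust dispersion, Benjamini-Hochberg adjustment over all genes tested, called at 0.05), fitted to the groups compared. Single genes were also compared on normalized RPKM with exact two-sided permutation tests (scipy 1.17.1). Alternatives were limma 3.58.1 voom, DESeq2 1.42.0, other scalings and filters, a replicate block and each library left out. A fit with each library's slope on gene length was chosen after seeing the data. The edgeR test was also run, for some of the comparisons, on simulated counts with known changes, drawn independently for each library. The simulation held no library that stood apart, no slope on gene length and no pairing, so it does not cover those cases.

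The members and lists were chosen with earlier results of these data known. All 8 members were named. Of the other lists, the text names the 2 called genes with the smallest p, and Hpse and Sumf1; some genes that this rule names are not reported here. The genes most like the members were the 5 outside all lists with the highest correlation, among genes at a mean of at least 1 normalized RPKM. Libraries had between 18627626 and 53264762 reads on genes. Molecular identifiers were not used. The study calls its GMP and BMMC libraries biological replicates. For Prss57 by RNA sequencing a figure legend of the study also gives biological replicates for each genotype, but it does not name the cells. CMPs are not named elsewhere. If they were not meant, the p-values there measure a spread between libraries that may be technical.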

Additional observations from a re-analysis of the deposited data

Results flagged for a closer look

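Over the 48 sets of a gene and a group, 4 values lay apart from the rest of their group by Dixon's test at the 95% level, where chance gives about 1 in 20 sets. Idua at 10.4 and Sgsh at 25.1 normalized RPKM were the lowest and the highest Prss57-/- BMMC value, both in library 3, whose macrophage markers were low. Ids at 1.90 was the lowest wild-type GMP value, in library 1, which had the most negative slope of values on gene length among the GMP libraries. Sgsh at 3.78 was the highest wild-type GMP value, in library 2. The part of marker levels and length slope in these values was not tested.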

How the results depend on the processing

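The number of members called stayed within 1.5 times under all settings run but the stricter rule (adjusted p under 0.01 and at least 2-fold), which called 1 member between GMPs and CMPs in either genotype and 4 members between BMMCs and GMPs in either genotype. With single libraries left out, 4 to 5 members were called between wild-type GMPs and CMPs, beside 4029 to 7596 of all genes. Between Prss57-/- GMPs and CMPs 3 to 5 members were called, beside 1891 to 6924 genes. Between Prss57-/- BMMCs and GMPs 7 to 8 members were called, beside 10288 to 11962 genes. Of the member log2 fold changes under alternatives, 1107 kept direction and side of the threshold, 62 changed sign, 23 lost a call and 8 gained one. The genotype values in GMPs that changed sign were Gusb (0.002749 with RLE factors, 0.005986 with library size, 0.005328 without a filter, 0.002732 in DESeq2), and, with the length slope, Sgsh (-0.010895) and Arsb (-0.019773). In CMPs, with library size, they were Ids (-0.064631), Hgsnat (-0.055204) and Gusb (-0.026615). Between wild-type GMPs and CMPs, Ids went to 0.000503 (RLE), 0.034005 (no filter), 0.000508 (DESeq2) and 0.122971 (length slope), and Sgsh to 0.028501 (no filter) and 0.051374 (length slope). Between BMMCs and CMPs, library size turned Gusb to -0.229707 (wild-type) and -0.132326 (Prss57-/-). The cause was not tested.

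With each library left out in turn, genotype log2 fold changes that changed sign ranged in GMPs from -0.263822 to 0.001768 (Ids), -0.017319 to 0.131427 (Idua), -0.032379 to 0.053353 (Sgsh), -0.003108 to 0.063189 (Hgsnat), -0.010516 to 0.028926 (Gusb), -0.040579 to 0.074757 (Arsb) and -0.059054 to 0.091888 (Hexa). In CMPs they ranged from -0.039582 to 0.137355 (Ids), -0.214129 to 0.056592 (Idua), -0.001409 to 0.069755 (Hgsnat) and -0.060262 to 0.044749 (Naglu). In BMMCs they ranged from -0.077189 to 0.352158 (Ids), -0.085450 to 0.088701 (Hgsnat), -0.048745 to 0.060321 (Naglu), -0.002552 to 0.186355 (Gusb), -0.323044 to 0.155816 (Arsb) and -0.107930 to 0.095439 (Hexa). Between wild-type GMPs and CMPs they ranged from -0.076007 to 0.183761 (Ids) and -0.074951 to 0.093679 (Sgsh).

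Same-numbered libraries did not deviate together in every pair of groups (lowest correlation across genes in each, -0.58 to -0.02), so pairing is not shown, although on average same-numbered libraries correlated more than others between genotypes in CMPs (0.26 against -0.11) and between GMPs and CMPs (0.16 against -0.09 in wild-type, 0.29 against -0.09 in Prss57-/-). With the replicate block, edgeR called 5 members between GMPs and CMPs in either genotype. Of all genes tested it called 6434 of 14967 in wild-type and 3735 of 14959 in Prss57-/- libraries. It called 0 members between genotypes, beside 1 gene in GMPs, 1 in CMPs and 0 in BMMCs. Over all genes, DESeq2 called 5 genotype differences in GMPs and 5 in CMPs, against 2 and 1 by edgeR; in GMPs edgeR called 1 without any 1 library but wild-type library 1, the length slope 9254 genes between wild-type and 8921 between Prss57-/- GMPs and CMPs, and between the latter DESeq2 called 5074 and a fit of all 26 libraries 6577. The stricter rule called 1918 and 1259 genes between GMPs and CMPs and 7630 and 7150 between BMMCs and GMPs. In Prss57-/- BMMC library 3, Sgsh was 1.77 times the mean of the other 4 Prss57-/- libraries.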
